A study of Mus musculus with 29 samples.

Results

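The genes described here are the 10 mouse regulators that decide how cyclin-dependent kinases 4 and 6 act in G1: the D-type cyclins *Ccnd1*, *Ccnd2* and *Ccnd3*, the kinases *Cdk4* and *Cdk6*, and the inhibitors *Cdkn1a*, *Cdkn1b*, *Cdkn1c*, *Cdkn2c* and *Cdkn2d*. They were chosen by symbol through their Ensembl identifiers, and all 10 were found among the 38924 genes of the deposited table. RNA-seq of polyadenylated RNA was available for 29 libraries of bone marrow cells from C57BL/6 mice, labelled young and taken 6 weeks after pIpC. There were 15 libraries from *Dnmt3a* mutant mice (3 of LT-HSC, 4 of ST-HSC, 4 of MPP3 and 4 of MPP4) and 14 from control mice (4 of LT-HSC, 3 of ST-HSC, 3 of MPP3 and 4 of MPP4). LT-HSC and ST-HSC are long-term and short-term haematopoietic stem cells, and MPP3 and MPP4 are multipotent progenitors with a myeloid and a lymphoid bias. pIpC is a synthetic double-stranded RNA that induces interferon and is commonly used to switch on an interferon-inducible Cre, and every group was taken from mice that had received it. The mutant allele, the Cre driver and whether replicates were separate animals are not given in the sources used here, so p-values measure the spread between these libraries, which may be technical in part.

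In a resting cell the retinoblastoma protein holds back the E2F factors that switch on DNA replication genes. Mitogen signals raise the D-type cyclins, which bind CDK4 or CDK6, and the active kinases phosphorylate the retinoblastoma protein and open the way into S phase. The INK4 inhibitors, among them p18 (*Cdkn2c*) and p19 (*Cdkn2d*), bind CDK4 and CDK6 directly, whereas the Cip/Kip inhibitors p21 (*Cdkn1a*), p27 (*Cdkn1b*) and p57 (*Cdkn1c*) bind complexes of cyclin and kinase, above all those of CDK2. In blood formation, the amount of CDK6 is known to set how fast a stem cell leaves quiescence, and p57 is known for keeping long-term stem cells at rest.

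The libraries held 6133994 to 10374672 counts each, and 3 counts corresponded to 0.288 to 0.564 CPM (counts scaled to library size, after TMM scaling). *Dnmt3a* itself stood at 92.3 to 222 CPM in mutant libraries and 82.0 to 167 CPM in control libraries, so its level checks no label. The summed level of 5 MPP3 markers was 4240 to 11100 CPM in MPP3 libraries against at most 1150 CPM elsewhere, and that of 5 MPP4 markers was 1120 to 1450 CPM in MPP4 libraries against at most 315 CPM elsewhere. The 6 LT-HSC markers summed to 607 to 1270 CPM in LT-HSC and 866 to 1820 CPM in ST-HSC, against 248 to 880 CPM in MPP3 and MPP4, and so did not set LT-HSC apart from ST-HSC. A list of 10 neutrophil markers summed to 105 to 12100 CPM in control LT-HSC and to at most 681 CPM in every other group, and 7 erythroid markers reached 28400 CPM in control LT-HSC replicate 1. A list of 9 markers of B and antibody-secreting cells summed to 4820 to 38500 CPM in mutant MPP3 and 3660 to 18900 CPM in control MPP3, against at most 3190 CPM in the other groups. In libraries of sorted pools, fewer cells of a type and less RNA per cell cannot be told apart.

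The promoters of the kinases *Cdk6*, which was higher in both progenitors than in the stem cells, and *Cdk4*, which was higher in 3 of the 4 such comparisons over both genotypes, and of *Cdkn1a*, the inhibitor that was higher in MPP4, are shown to give the letters around a transcription start of the genes on which the results turn. They come from RefSeq (GRCm38.p6), 5′ to 3′ on the gene's own strand, with 250 bases before and 50 after a transcription start. Capitals mark the E box CACGTG and the GC box GGGCGG, read on both strands, so that CCGCCC is a GC box too. The windows are chr5:3343643-3343942 for *Cdk6*, chr10:127063285-127063584 for *Cdk4* and chr17:29093519-29093818 for the second of the 2 *Cdkn1a* starts, all on the plus strand. The *Cdk6* and *Cdkn1a* windows lie within the gene spans given below.
Cdk6: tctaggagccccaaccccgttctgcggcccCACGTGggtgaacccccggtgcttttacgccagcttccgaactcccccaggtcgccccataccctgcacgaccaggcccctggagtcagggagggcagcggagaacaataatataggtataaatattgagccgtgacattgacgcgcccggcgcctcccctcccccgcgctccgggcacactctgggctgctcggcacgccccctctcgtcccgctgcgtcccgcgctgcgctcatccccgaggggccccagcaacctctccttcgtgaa
Cdk4: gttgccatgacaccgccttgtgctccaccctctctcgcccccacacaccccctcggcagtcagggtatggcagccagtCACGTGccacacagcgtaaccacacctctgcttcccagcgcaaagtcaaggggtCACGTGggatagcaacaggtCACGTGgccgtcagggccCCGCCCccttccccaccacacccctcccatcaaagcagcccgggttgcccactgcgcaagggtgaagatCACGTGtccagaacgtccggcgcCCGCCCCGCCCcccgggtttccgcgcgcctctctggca
Cdkn1a: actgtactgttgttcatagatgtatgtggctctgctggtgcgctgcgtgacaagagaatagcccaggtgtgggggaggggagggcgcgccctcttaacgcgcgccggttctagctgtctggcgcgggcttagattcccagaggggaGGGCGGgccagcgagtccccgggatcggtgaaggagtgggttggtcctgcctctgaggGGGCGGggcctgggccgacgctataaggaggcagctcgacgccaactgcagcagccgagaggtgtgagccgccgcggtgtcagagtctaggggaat
The *Cdk4* window held 4 E boxes and 3 GC boxes, the last 2 of which overlap. The *Cdk6* window held 1 E box and no GC box, and the *Cdkn1a* window held 2 GC boxes and no E box. Of 32851 mouse promoter windows of this length, 7.15% held an E box and 35.7% a GC box. Promoters were matched for 7 of the 10 genes, in 10 windows. None of these windows held the E2F words TTTCCCGC, TTTCGCGC, TTTGCCGC or TTTGGCGC, which 2.26% of all windows held, and only the first *Ccnd3* window held the FoxO word GTAAACA, which 3.65% of all windows held. CpG counts in the 10 windows ran from 2, in the first *Cdkn1a* window, to 33, in the first *Cdkn2c* window, against a median of 7 over all windows. These matches describe the letters only.

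Per exon length, the kinases stood above their partners and inhibitors. *Cdk4* and *Cdk6* had medians of 39.6 and 38.6 CPM per kb of exon over the 29 libraries, followed by *Ccnd2* with 19.9 CPM per kb, *Cdkn2d* with 12.1 CPM per kb, *Ccnd3* with 11.3 CPM per kb and *Ccnd1* with 10.8 CPM per kb. Among the inhibitors, *Cdkn1b* had a median of 9.96 CPM per kb, *Cdkn2c* 4.11 CPM per kb, *Cdkn1a* 3.95 CPM per kb and *Cdkn1c* 1.39 CPM per kb. *Cdk4* and *Cdk6*, and likewise *Cdkn2d*, *Ccnd3* and *Ccnd1*, lay closer to each other than their spread over libraries. All 10 genes passed the filter on low counts in every comparison, although *Cdkn1c* had no count at all in 3 libraries. Exons of *Ccnd1*, *Ccnd2*, *Ccnd3* and *Cdk4* overlap a gene on the other strand (*LTO1*, *9330179D12Rik*, *Bysl* and *Tspan31*), and the counting is not stated to use strand, so reads in the shared stretches could belong to either gene.

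**Figure D1:**
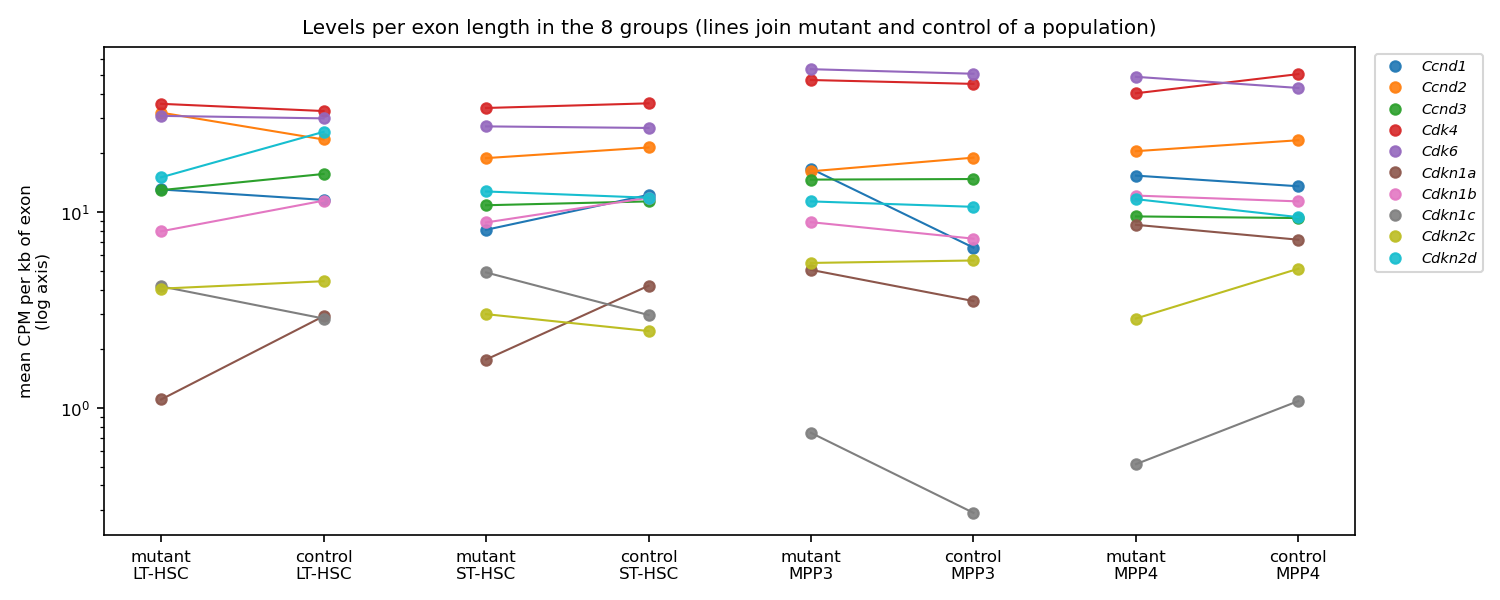
Mean level of the 10 genes in each of the 8 groups, in CPM per kb of exon on a log axis, with a line from the mutant to the control mean of each population. *Cdk4* and *Cdk6* lie at the top of every population except mutant LT-HSC, where *Ccnd2* lies between them, and *Cdkn1c* lies at the bottom in MPP3 and MPP4.

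Mutant and control cells were set against each other within each population, the question being whether a *Dnmt3a* mutation alters the G1 regulators of young stem and progenitor cells. None of the 10 genes passed edgeR's quasi-likelihood test with Benjamini-Hochberg adjustment at 0.05 in any of the 4 populations. The same was true of every gene tested (0 of 13922 in LT-HSC, 0 of 13381 in ST-HSC, 0 of 13572 in MPP3 and 0 of 13108 in MPP4, or 0% in each). An unadjusted p under 0.05 was found for 2 of the 10 genes in LT-HSC, where 1185 of all genes had one, and for none of the 10 elsewhere, where 302 to 493 genes had one. The median log2 difference of the 10 genes, mutant minus control, ranged over the populations between -0.08 and 0.08, against 0.00 to 0.01 over all genes tested. Averaged over the 4 populations with limma voom, 3 of the 10 genes were higher and 7 lower in mutant cells, none past the threshold, and the differences ran from -0.31 for *Cdkn1a* to 0.48 for *Cdkn1c*. The test of whether the mutant difference varied between populations passed for none of the 10 genes and for none of 15915 in all, with unadjusted p under 0.05 for 946 genes. The smallest p among the 10 was that of *Ccnd1* (unadjusted p = 0.0539, adjusted p = 0.849 by edgeR's quasi-likelihood F test).

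The 2 genes with an unadjusted p under 0.05 were both in LT-HSC. *Ccnd2* (ENSMUSG00000000184, GRCm38 chr6:127125162-127152193, minus strand), the D-type cyclin best known from proliferating lymphocytes, had 277, 334 and 295 CPM in mutant LT-HSC, against 182, 187, 258 and 253 CPM in control LT-HSC. All 3 mutant libraries lay above all 4 control libraries. The share of all genes that separate in this way was not computed, so no weight is put on it. The log2 difference was 0.45 (SE 0.197, unadjusted p = 0.0449, adjusted p = 0.562 by edgeR's quasi-likelihood test). *Cdkn1a* (ENSMUSG00000023067, GRCm38 chr17:29090976-29100727, plus strand), the p53 target p21, had 1.40, 6.34 and 4.01 CPM in mutant LT-HSC, against 8.59, 18.4, 4.81 and 9.88 CPM in control LT-HSC. The groups overlapped in 1 control library. The log2 difference was -1.43 (SE 0.61, unadjusted p = 0.039, adjusted p = 0.533 by edgeR's quasi-likelihood test), and it was -1.59 and -1.12 within each of the 2 prefixes that the column names carry. Both genes rest in part on control LT-HSC libraries with neutrophil RNA: *S100a8*, which encodes a neutrophil granule protein, stood at 2260, 583.5 and 348.9 CPM in replicates 1, 2 and 3. Neither difference turned sign in any of 15 alternative fits, among them a fit without these libraries. That fit leaves only replicate 4 as control, at 253 CPM for *Ccnd2* and 9.88 CPM for *Cdkn1a*. The part of the neutrophil RNA in these differences was not tested further.

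The third gene in this order was *Cdkn1b* (ENSMUSG00000003031, GRCm38 chr6:134920401-134925513, plus strand), which encodes p27. It had 36.8, 33.8 and 38.0 CPM in mutant LT-HSC, against 41.1, 74.5, 46.7 and 45.3 CPM in control LT-HSC. Every mutant library lay below every control library, a separation whose share over all genes was not computed and on which no weight is put. The log2 difference was -0.53 (SE 0.252, unadjusted p = 0.058, adjusted p = 0.617 by edgeR's quasi-likelihood test). Control replicates 1, 2 and 3 are again the libraries with neutrophil RNA, whose part in this difference was not tested. In ST-HSC *Cdkn1a* and *Cdkn1b* had differences of the same sign, -1.25 (SE 0.719) and -0.42 (SE 0.314), while in MPP3 and MPP4 both were positive, 0.53 and 0.27 in MPP3 and 0.26 and 0.11 in MPP4. None of these passed the test. For *Cdk6* the mutant minus control difference lay between 0.02 (ST-HSC) and 0.19 (MPP4), with standard errors of 0.172 to 0.264.

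*Ccnd1* (ENSMUSG00000070348, GRCm38 chr7:144929931-144939925, minus strand) showed how far 1 library could carry a difference. It had 216, 34.2, 23.4 and 38.8 CPM in mutant MPP3, against 36.6, 29.2 and 26.9 CPM in control MPP3. Replicate 1 of the mutant libraries stood alone, and the other 3 overlapped the control libraries. The log2 ratio of the mean levels was 1.34 with this library and 0.06 without it. *LTO1*, which overlaps *Ccnd1* on the other strand, had 4.45 CPM in that library and 13.0 to 19.4 CPM in the other mutant MPP3 libraries. That library held 6418833 counts, against 8283819 to 10116135 in the other mutant MPP3 libraries. It had 14302 genes with a count, the fewest of the 29 libraries. Its 5 MPP3 markers summed to 11120 CPM, against 4235 to 8409 CPM in the others of its group. There, 8 endothelial and stromal markers summed to 15.2 CPM, against 28.4 to 58.79 CPM in the other mutant MPP3 libraries. A list of 8 macrophage and dendritic markers summed to 223.6 CPM there, against 82.51 to 130.3 CPM. What set this library apart was not tested. *Cdkn2c*, which encodes p18, had the smallest p of the 10 genes in MPP4, with 11.2, 4.52, 4.36 and 10.5 CPM in mutant MPP4, against 10.9, 19.5, 9.77 and 14.8 CPM in control MPP4 (log2 difference -0.84, SE 0.432, unadjusted p = 0.0692, adjusted p = 0.999 by edgeR's quasi-likelihood test). The groups overlapped.

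**Figure D2:**
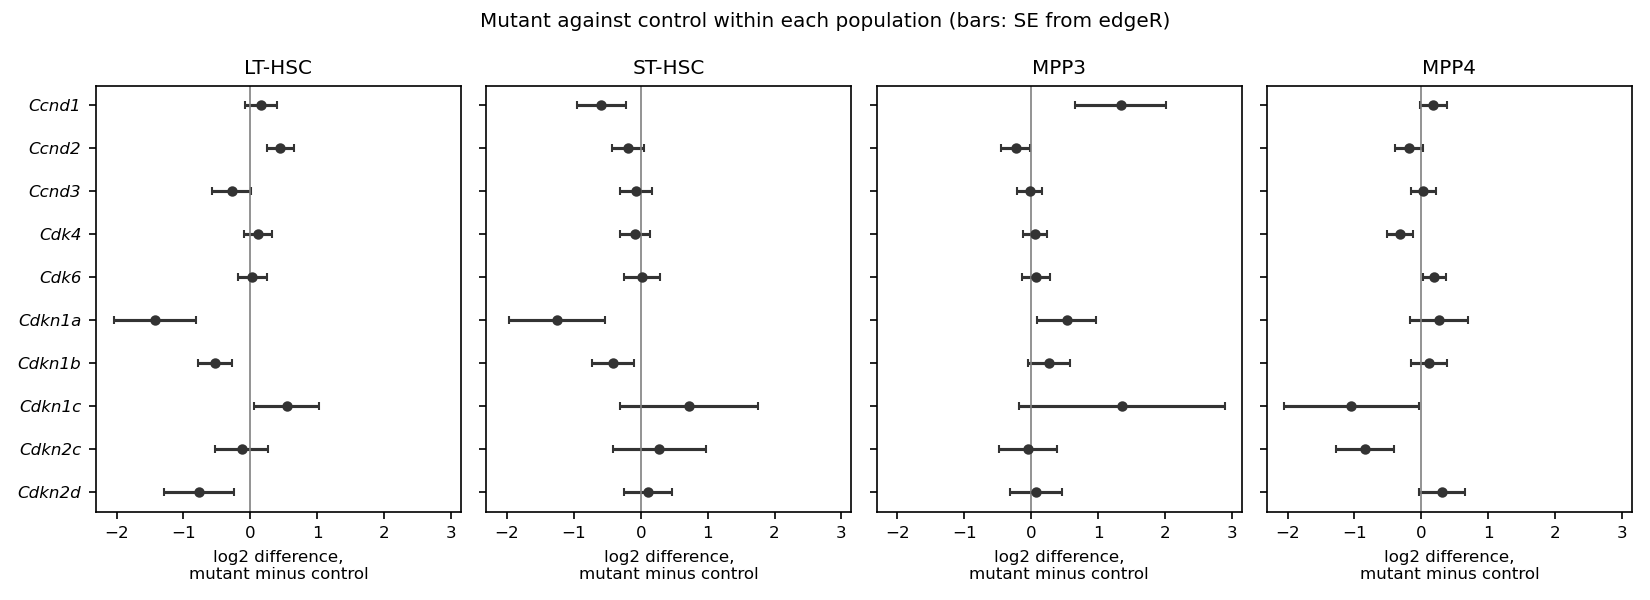
Log2 difference, mutant minus control, of the 10 genes in each population, one panel per population, with bars of 1 standard error derived from edgeR's test. No point passed the adjusted threshold, the points of *Cdk6* lie between 0.02 and 0.19, and the bars of the sparse *Cdkn1c* are the widest in each panel except that of LT-HSC, where those of *Cdkn1a* are.

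The populations were then compared, first among the 15 mutant and the 14 control libraries separately, and then over both genotypes in 1 fit of all 29 libraries with the population differences averaged over genotype, which was added after the data had been seen. The separate fits share no library. Among mutant libraries, MPP3 against LT-HSC gave 1 of the 10 genes past the threshold (2.95% of all genes), MPP4 against LT-HSC 1 (2.18%), MPP3 against ST-HSC 1 (4.27%) and MPP4 against ST-HSC 2 (2.24%), while ST-HSC against LT-HSC (0.278%) and MPP4 against MPP3 (1.44%) gave none. Among control libraries, MPP4 against LT-HSC gave 1 (4.51%), and ST-HSC against LT-HSC (0.1%), MPP3 against LT-HSC (1.39%), MPP3 against ST-HSC (1.75%), MPP4 against ST-HSC (1.49%) and MPP4 against MPP3 (1.44%) gave none. No gene passed in both genotypes for the same pair of populations, although 6 to 8 of the 10 differences had the same sign in both. Whether a population difference differed between genotypes was tested only jointly, in the test above, and no gene passed.

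Over both genotypes, of the 10 genes, 0 passed for ST-HSC against LT-HSC (1.39% of 15915 genes), 4 for MPP3 against LT-HSC (7.4%), 5 for MPP4 against LT-HSC (7.18%), 3 for MPP3 against ST-HSC (10.5%), 2 for MPP4 against ST-HSC (6.74%) and 1 for MPP4 against MPP3 (5.79%). The median log2 difference of the 10 genes was -0.24, -0.09, 0.04, 0.24, 0.28 and 0.14 in that order, against -0.04 to 0.02 over all genes. *Cdk6* was higher in both progenitor populations than in both stem cell populations, *Cdk4* was higher in MPP3 than in both and in MPP4 than in LT-HSC, *Ccnd2*, *Ccnd3*, *Cdkn1c* and *Cdkn2d* were lower in one or other progenitor, and *Cdkn1a* was higher in MPP4. *Ccnd1*, *Cdkn1b* and *Cdkn2c* passed in no comparison of the main fits. In alternatives over both genotypes, *Ccnd1* passed in 1 of 22 for MPP3 against LT-HSC and 1 of 23 for MPP4 against MPP3. *Cdkn2c* passed in 5 of 22 for MPP3 against ST-HSC.

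**Figure D3:**
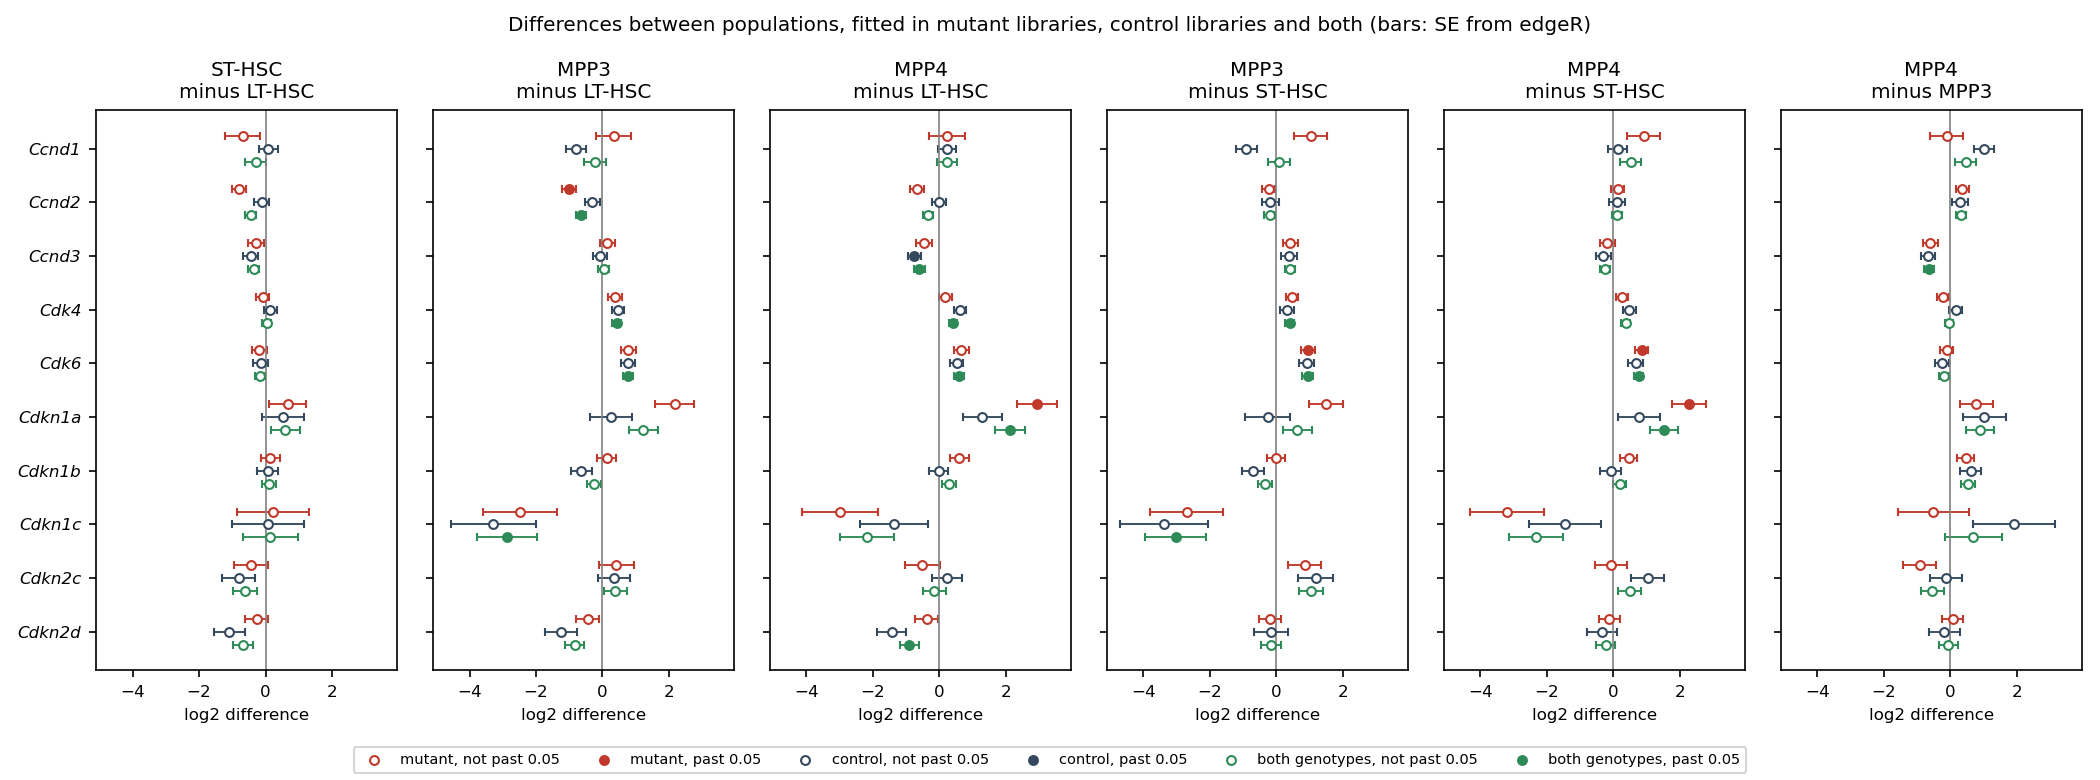
Log2 difference of each gene between populations, the first named minus the second, fitted in mutant libraries, in control libraries and over both genotypes, with bars of 1 standard error derived from edgeR's test and filled points where the adjusted p was under 0.05. *Cdk6* lies right of 0 in all 3 fits in each of the 4 panels that set a progenitor against a stem cell.

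*Cdk6* (ENSMUSG00000040274, GRCm38 chr5:3341485-3531008, plus strand) was higher in both progenitor populations than in the stem cells. In MPP3 it had 834, 685, 863 and 611 CPM in mutant and 558, 807 and 765 CPM in control libraries. In MPP4 it had 540, 812, 672 and 712 CPM in mutant and 628, 656, 557 and 562 CPM in control libraries. The stem cells were lower: ST-HSC had 435, 244, 351 and 497 CPM in mutant and 398, 428 and 300 CPM in control libraries, and LT-HSC had 478, 442 and 377 CPM in mutant and 290, 449, 459 and 481 CPM in control libraries. All 15 progenitor libraries lay above all 14 stem cell libraries. Over both genotypes the log2 difference was 0.94 for MPP3 minus ST-HSC (SE 0.154, adjusted p = 0.000125) and 0.76 for MPP4 minus ST-HSC (SE 0.149, adjusted p = 0.00122), by edgeR's quasi-likelihood test. Against LT-HSC it was 0.78 for MPP3 (SE 0.153, adjusted p = 0.00145) and 0.59 for MPP4 (SE 0.148, adjusted p = 0.0104), by the same test. Among mutant libraries alone MPP3 and MPP4 both passed against ST-HSC (0.96, adjusted p = 0.0113, and 0.85, adjusted p = 0.0342, by edgeR's quasi-likelihood test), and among control libraries the same differences were 0.91 (adjusted p = 0.0513) and 0.67 (adjusted p = 0.142). The mutant call for MPP3 held without each 1 of the 8 libraries, and that for MPP4 was lost without any 1 of 5 of them, with adjusted p up to 0.123. The order of the population means was MPP3 (732 ± 117 CPM), MPP4 (642 ± 91.9 CPM), LT-HSC (425 ± 69.0 CPM) and ST-HSC (379 ± 86.6 CPM; SD, n = 7, 8, 7 and 7), in which MPP3 and MPP4 (-0.19 for MPP4 minus MPP3, SE 0.146) and ST-HSC and LT-HSC (-0.17 for ST-HSC minus LT-HSC, SE 0.152) did not pass the test. Without the 4 libraries over 100 CPM of *S100a8*, which leaves 1 control LT-HSC library, the differences against LT-HSC missed the threshold (0.70, adjusted p = 0.051, for MPP3 and 0.49, adjusted p = 0.242, for MPP4), and those against ST-HSC kept it.

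*Cdk4* (ENSMUSG00000006728, GRCm38 chr10:127063534-127067920, plus strand), the other kinase of the D-type cyclins, differed by less. MPP3 libraries had 168, 137, 154 and 153 CPM in mutant and 144, 152 and 144 CPM in control cells. ST-HSC libraries had 113, 110, 126 and 90.5 CPM in mutant and 130, 100.3 and 119 CPM in control cells, and LT-HSC libraries had 129, 99.4 and 119 CPM in mutant and 82.7, 98.6, 127 and 117 CPM in control cells. The MPP3 libraries lay above every stem cell library. MPP4 overlapped them, with 135, 117, 166 and 106 CPM in mutant and 153, 153, 155 and 195 CPM in control cells. Over both genotypes the log2 difference was 0.43 for MPP3 minus LT-HSC (SE 0.129, adjusted p = 0.0373), 0.40 for MPP3 minus ST-HSC (SE 0.129, adjusted p = 0.0417) and 0.40 for MPP4 minus LT-HSC (SE 0.125, adjusted p = 0.0466), by edgeR's quasi-likelihood test. MPP4 minus ST-HSC was 0.37 (SE 0.125, adjusted p = 0.07 by the same test) and did not pass, and no difference of *Cdk4* passed among mutant or control libraries alone. The 3 calls lay near the threshold. The first was lost without any 1 of 10 libraries, the second without any 1 of 11 and the third without any 1 of 11, with adjusted p up to 0.111, 0.112 and 0.139. *Tspan31*, whose exons overlap *Cdk4*, was lower, at 11.9 to 58.6 CPM over the 29 libraries.

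**Figure D4:**
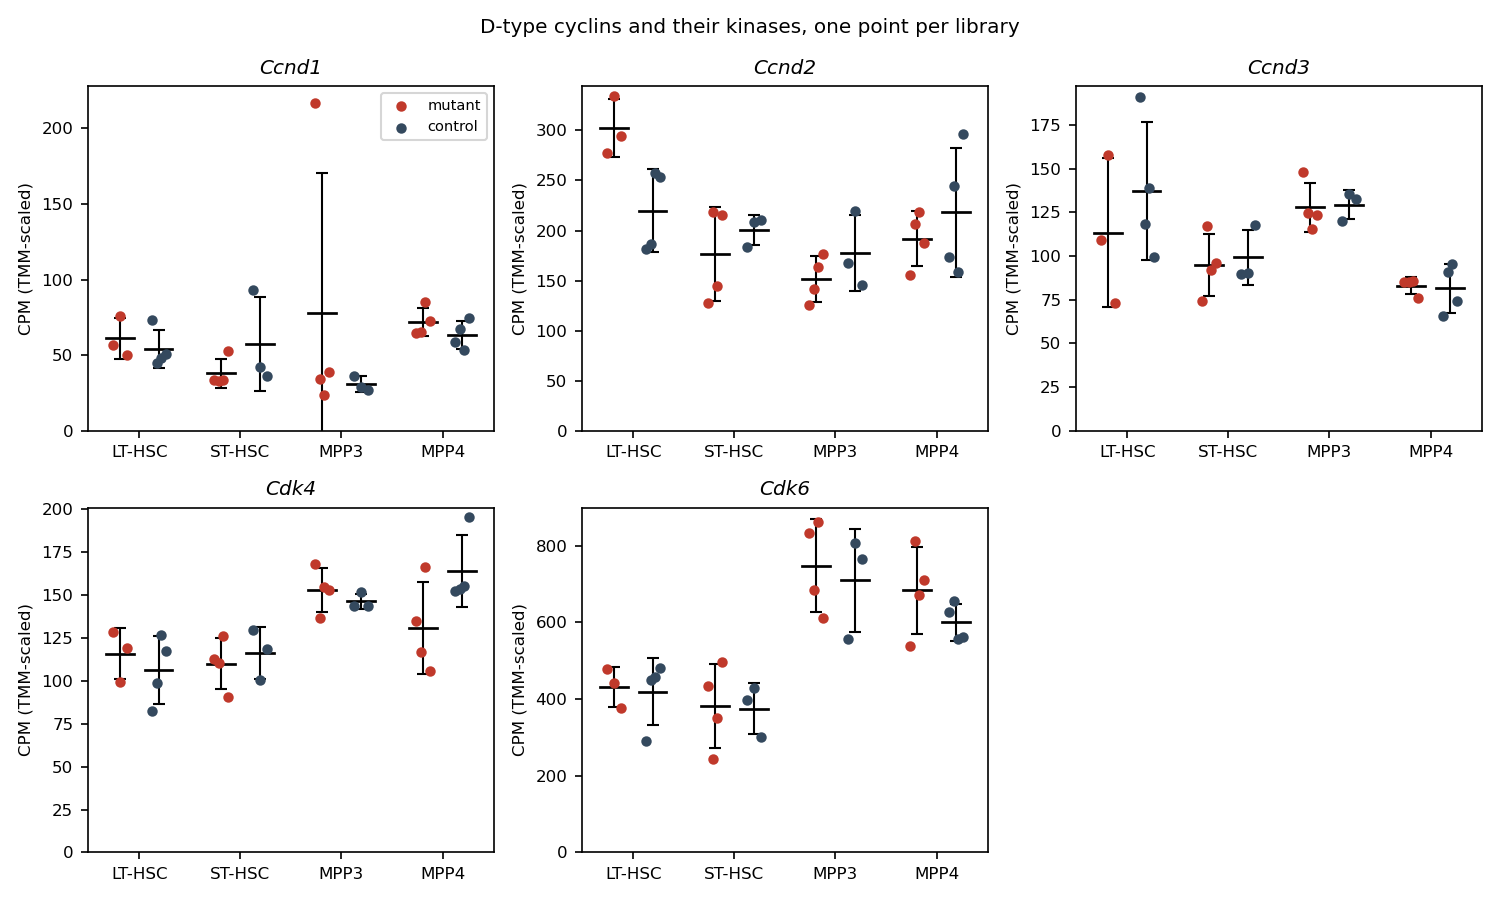
Level of the D-type cyclins and their kinases in each library (points, CPM after TMM scaling), with the mean and SD of each group (line and bars), mutant left of control in each population. *Cdk6* lies at 540 to 863 CPM in MPP3 and MPP4 and at 244 to 497 CPM in LT-HSC and ST-HSC, and a single mutant MPP3 library carries *Ccnd1* to 216 CPM.

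No D-type cyclin was called higher in a progenitor than in a stem cell population in these fits. *Ccnd2* was lower in MPP3 than in LT-HSC: mutant MPP3 had 125, 142, 164 and 177 CPM, against 277, 334 and 295 CPM in mutant LT-HSC, with no overlap. Control MPP3 had 168, 220 and 146 CPM, against 182, 187, 258 and 253 CPM in control LT-HSC, and these overlapped. The log2 difference was -1.01 among mutant libraries (adjusted p = 0.0107), -0.30 among control libraries (adjusted p = 0.654) and -0.65 over both (SE 0.158, adjusted p = 0.00945), by edgeR's quasi-likelihood test, and the last kept its call without any 1 library of the 14. The mutant call was lost without mutant LT-HSC replicate 2 or 3, with adjusted p up to 0.0654. MPP4 minus LT-HSC was -0.66 among mutant and -0.01 among control libraries, neither past the threshold.

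*Ccnd3* (ENSMUSG00000034165, GRCm38 chr17:47505051-47599691, plus strand), the D-type cyclin that lymphoid precursors and erythroid cells are known to need, was lower in MPP4 than in MPP3 and LT-HSC. MPP4 libraries had 85.3, 85.3, 85.7 and 76.1 CPM in mutant and 65.7, 90.7, 95.4 and 74.0 CPM in control cells. MPP3 libraries had 148, 124, 116 and 124 CPM in mutant and 120, 135 and 133 CPM in control cells. All 8 MPP4 libraries lay below all 7 MPP3 libraries, and the log2 difference over both genotypes was -0.64 (SE 0.154, adjusted p = 0.00891 by edgeR's quasi-likelihood test), a call that held without each 1 of the 15 libraries. ST-HSC libraries, at 74.2 to 118 CPM, overlapped those of MPP4 (MPP4 minus ST-HSC -0.24, adjusted p = 0.435 by the same test). MPP3 minus ST-HSC was 0.41 (SE 0.16, adjusted p = 0.104 by the same test) and did not pass, with 6 of the 7 MPP3 libraries above every ST-HSC library. LT-HSC spread widely, with 109, 158 and 73.3 CPM in mutant and 191, 118, 139 and 99.5 CPM in control cells. MPP4 minus LT-HSC was -0.60 over both genotypes (SE 0.154, adjusted p = 0.0124) and -0.75 among control libraries (SE 0.206, adjusted p = 0.0479), by edgeR's quasi-likelihood test. Without the libraries over 100 CPM of *S100a8* these were -0.36 (adjusted p = 0.476) and -0.30 (adjusted p = 0.901). The control call was lost without any 1 of 7 of the 8 libraries (adjusted p up to 0.155, at -0.56, without control LT-HSC replicate 1), and the call over both genotypes was lost without mutant LT-HSC replicate 2 (-0.44, adjusted p = 0.0951). *Bysl*, on the other strand, had 18.6 to 84.6 CPM over the 29 libraries. *Ccnd1* had medians of 34.2 CPM in MPP3 and 66.1 CPM in MPP4, against 36.5 CPM in ST-HSC and 50.8 CPM in LT-HSC, and passed in no comparison of the main fits. The MPP3 libraries include mutant replicate 1, at 216 CPM, and 6 of the 7 lay below every LT-HSC library. MPP4 libraries had 53.3 to 85.1 CPM. MPP4 minus MPP3 was 1.03 among control libraries (SE 0.302, unadjusted p = 0.00318, adjusted p = 0.12) and -0.11 among mutant libraries (adjusted p = 0.965), by edgeR's quasi-likelihood test.

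Of the Cip/Kip inhibitors, *Cdkn1a* was higher in MPP4 than in the stem cells. MPP4 libraries had 16.5, 57.6, 18.9 and 28.9 CPM in mutant and 16.7, 24.5, 48.2 and 12.9 CPM in control cells. LT-HSC had 1.40, 6.34 and 4.01 CPM in mutant and 8.59, 18.4, 4.81 and 9.88 CPM in control cells, and ST-HSC had 6.34, 2.82, 6.68 and 9.13 CPM in mutant and 17.8, 2.15 and 24.7 CPM in control cells. The mutant groups did not overlap and the control groups did. Among mutant libraries the log2 difference was 2.95 for MPP4 minus LT-HSC (adjusted p = 0.0101) and 2.28 for MPP4 minus ST-HSC (adjusted p = 0.0226), against 1.29 (adjusted p = 0.293) and 0.77 (adjusted p = 0.615) among control libraries, by edgeR's quasi-likelihood test. The first of these mutant calls was lost without mutant LT-HSC replicate 1 or 3 (adjusted p up to 0.0689) and the second without any 1 of 5 of the 8 libraries (adjusted p up to 0.123). Over both genotypes the differences were 2.13 (SE 0.443, adjusted p = 0.00178) and 1.53 (SE 0.431, adjusted p = 0.0266) by the same test. Over both genotypes the first kept its call without each 1 of the 15 libraries and reached adjusted p = 0.0696 without the libraries over 100 CPM of *S100a8*, at 2.17, while the second lost its call without any 1 of 4 libraries, with adjusted p up to 0.078. MPP3 lay between, with 9.65, 22.6, 21.0 and 18.5 CPM in mutant and 7.76 to 15.5 CPM in control cells.

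*Cdkn1c* (ENSMUSG00000037664, GRCm38 chr7:143458339-143461050, minus strand), the imprinted gene of p57, ran the other way. It had 49, 81 and 98 counts in mutant and 50, 28, 40 and 57 counts in control LT-HSC, and 18, 27, 103 and 136 counts in mutant and 26, 134 and 1 counts in control ST-HSC. In MPP3 it had 0, 25, 2 and 25 counts in mutant and 12, 1 and 0 counts in control cells, and in MPP4 3, 4, 0 and 30 counts in mutant and 5, 14, 9 and 55 counts in control cells. All 7 MPP3 libraries, at 0 to 3.04 CPM, lay below all 7 LT-HSC libraries, at 3.33 to 11.2 CPM. Within ST-HSC the libraries ran from 0.159 to 16.3 CPM, so the group mean stands for few of its libraries. Over both genotypes the log2 difference was -2.87 for MPP3 minus LT-HSC (SE 0.906, adjusted p = 0.0487) and -3.03 for MPP3 minus ST-HSC (SE 0.91, adjusted p = 0.0296), by edgeR's quasi-likelihood test. With 1 library left out at a time, the first call held in 3 and the second in 9 of 14 fits, with adjusted p up to 0.132 and 0.17. MPP4 minus LT-HSC was -2.17 (adjusted p = 0.121) and MPP4 minus ST-HSC -2.33 (adjusted p = 0.0891), by the same test. *Cdkn1b*, the remaining member of the family, had medians of 40.0 CPM in MPP3 and 53.2 CPM in MPP4, against 47.2 CPM in ST-HSC and 41.1 CPM in LT-HSC.

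The INK4 inhibitors gave 1 call. *Cdkn2d* (ENSMUSG00000096472, GRCm38 chr9:21288410-21291407, minus strand) had 19.0, 15.9, 18.7 and 19.7 CPM in mutant and 20.0, 19.4, 7.96 and 11.8 CPM in control MPP4, against 15.1, 34.0 and 21.9 CPM in mutant and 88.8, 31.5, 23.6 and 17.1 CPM in control LT-HSC. Control LT-HSC replicate 1 stood above the rest, and the 2 populations overlapped. The log2 difference over both genotypes was -0.90 (SE 0.28, adjusted p = 0.0453 by edgeR's quasi-likelihood test), -0.53 (adjusted p = 0.237) without control LT-HSC replicate 1, and -0.28 (adjusted p = 0.857) without the libraries over 100 CPM of *S100a8*. With 1 library left out at a time, the call held in 6 of 15 fits. In control LT-HSC replicate 1 *Cdkn2d* moved with the erythroid and neutrophil sums given above, with *Cdk6* at its lowest LT-HSC level, 290 CPM, and with the proliferation gene *Mki67* at 3113 CPM, the highest of the 29 libraries. The part of these cells in the *Cdkn2d* level was not tested. *Cdkn2c* (ENSMUSG00000028551, GRCm38 chr4:109660876-109667189, minus strand) had medians of 12.6 CPM in MPP3 and 10.7 CPM in MPP4, against 7.91 CPM in ST-HSC and 11.3 CPM in LT-HSC. MPP3 minus ST-HSC was 1.03 (SE 0.362, adjusted p = 0.0667 by edgeR's quasi-likelihood test), with 10.2 to 23.4 CPM in MPP3 against 2.07 to 12.6 CPM in ST-HSC.

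**Figure D5:**
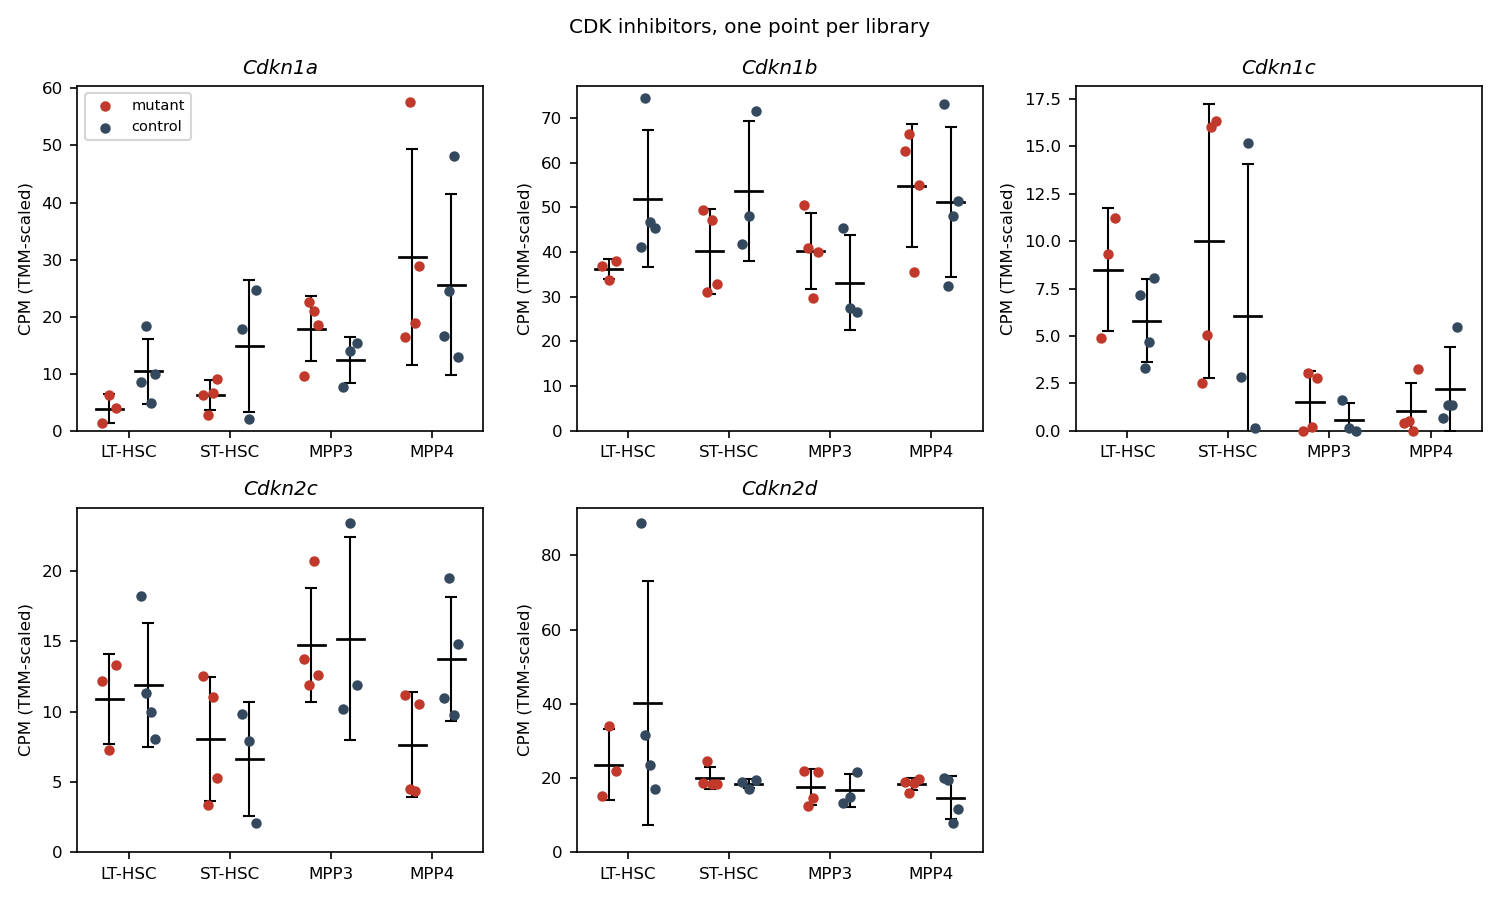
Level of the 5 CDK inhibitors in each library (points, CPM after TMM scaling), with the mean and SD of each group (line and bars), mutant left of control in each population. *Cdkn1a* is lowest in mutant LT-HSC (1.40 to 6.34 CPM), *Cdkn1c* is at 0 to 3.04 CPM in MPP3, and *Cdkn2d* has 1 high library in control LT-HSC (88.8 CPM).

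The other genes of the pathway were read beside the 10. Of 26 further G1/S regulators, among them the E cyclins, the E2F factors and the retinoblastoma family, 24 were tested. Over both genotypes 9 were higher and 0 lower in MPP3 than in ST-HSC (5.91% and 4.56% of all genes), and their median log2 difference was 0.44, against -0.04 over all genes. The 4 with the smallest p were *Ccna2*, the S phase cyclin (1.55, adjusted p = 0.000064), *Cks1b*, a partner of cyclin-dependent kinases (1.47, adjusted p = 0.000129), *E2f8*, an E2F repressor (1.07, adjusted p = 0.000256), and *Tfdp1*, the partner of E2F factors (0.83, adjusted p = 0.00115), by edgeR's quasi-likelihood test. In MPP4 against ST-HSC 4 were higher and 0 lower (3.22% and 3.52% of all genes), *Ccna2*, *Cks1b*, *Skp2* and *Rbl1*. Against LT-HSC, MPP3 had 2 higher and 0 lower (3.86% and 3.53% of all genes), *Tfdp1* and *Cks1b*, and MPP4 had 0 higher and 2 lower (2.87% and 4.31%), *Rb1* and *Tfdp2*. *Rb1*, which encodes the retinoblastoma protein itself, was lower in MPP4 than in LT-HSC (-0.73, adjusted p = 0.0214) and than in MPP3 (-0.98, adjusted p = 0.00241), by edgeR's quasi-likelihood test. Its difference from LT-HSC was -0.34 among mutant libraries (adjusted p = 0.852; 27.3 to 43.0 CPM in MPP4, against 40.2 to 46.9 CPM in LT-HSC) and -1.12 among control libraries (adjusted p = 0.0341; 37.0 to 55.7 CPM in MPP4, against 58.2 to 179 CPM in LT-HSC, the group with the neutrophil and erythroid RNA), by the same test. *E2f4* was the other of the 2 that were lower in MPP4 than in MPP3 (3.72% of all genes). In ST-HSC against LT-HSC 2 were lower, *Ccna2* and *E2f8*, and 0 higher (0.779% and 0.616% of all genes). The LT-HSC side includes the control libraries with neutrophil and erythroid RNA.

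Genes of G2 and mitosis, which mark dividing cells, were read in the same fit. All 12 genes on that list were higher in MPP3 and in MPP4 than in ST-HSC over both genotypes (5.91% and 3.22% of all genes), with medians of 1.44 and 1.17 against -0.04 and -0.03 over all genes. Against LT-HSC 4 of the 12 were higher and 0 lower in MPP3 (3.86% and 3.53% of all genes), and none passed in MPP4 (2.87% and 4.31%). In ST-HSC against LT-HSC 6 of the 12 were lower and 0 higher (0.779% and 0.616% of all genes), and their median was -0.88. In the separate fits all 12 had negative differences, but 0 passed among control libraries (0.1% of all genes) and 1 among mutant libraries (0.278%). *Mki67*, a marker of cycling cells, averaged 590 ± 60.1 CPM in mutant and 595 ± 158 CPM in control ST-HSC (SD, n = 4 and 3), against 962 ± 201 CPM in mutant and 1730 ± 950 CPM in control LT-HSC (SD, n = 3 and 4). The control LT-HSC mean includes replicate 1, the library with the most neutrophil and erythroid RNA and the highest *Mki67* level. In MPP3 it averaged 1490 ± 56.6 CPM in mutant and 1390 ± 214 CPM in control cells (SD, n = 4 and 3). None of the 10 G1 regulators passed for ST-HSC against LT-HSC, where *Cdk6* differed by -0.17 (SE 0.152) and *Cdk4* by 0.03 (SE 0.129). *Cdk1*, the mitotic kinase, had 13.1, 4.14, 13.8 and 6.01 CPM in mutant and 24.6, 8.59 and 3.02 CPM in control ST-HSC, against 21.7, 22.0 and 25.2 CPM in mutant and 37.6, 22.2, 20.0 and 27.4 CPM in control LT-HSC (log2 difference over both genotypes -1.22, SE 0.317, adjusted p = 0.0445 by edgeR's quasi-likelihood test). Of 12 S phase genes, 7 were higher in MPP3 and 4 in MPP4 than in ST-HSC (5.91% and 3.22% of all genes), and none passed for ST-HSC or MPP3 against LT-HSC. In MPP4 against LT-HSC 1 was lower (4.31% of all genes), *Gins2* (-0.70, adjusted p = 0.00378 by edgeR's quasi-likelihood test). *Mcm5*, a subunit of the replicative helicase, was 1 of the 7 that were higher in MPP3 than in ST-HSC (0.71, adjusted p = 0.0412 by edgeR's quasi-likelihood test).

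The genes whose levels ran most like each member over the 29 libraries were found by the root mean square (RMS) difference of mean-centred log2 CPM. For *Cdk6* they were *Pphln1*, ENSMUSG00000043858 and *Cbx5*, at 0.278 to 0.283, against a median of 0.839 over 15914 genes. For *Cdk4* they were *Gusb*, *Pak2* and *Xpo6* (0.196 to 0.228, median over all genes 0.743), and for *Ccnd2* they were *Adgrg1*, *Nedd4* and *Pura* (0.244 to 0.28, median 0.77). *Cdkn1c* ran most like *Itsn1*, *Gucy1a1* and *Mmrn1*, the last of these 1 of the 6 LT-HSC markers, but at 1.27 to 1.29 against a median of 2.00. *Cdkn2d* ran most like *Bnip3l*, *Epb41* and *Cntd1* (0.352 to 0.417, median 0.894). No member was among the nearest 3 of another.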

How the data were processed

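Per the submitters' processing notes, the reads were processed with Bowtie2 2.2.0, RSEM 1.2.12, SAMtools 0.1.18 and edgeR 3.5.3 against GRCm38, and the deposited values are RSEM expected counts per Ensembl gene, held as whole numbers with no scaling. Groups were taken from the labels, and columns were matched to samples by the number, genotype and population in their names. The submitters' design text counts 3 mutant MPP3 samples where 4 are labelled. Gene symbols came from GENCODE vM21 by Ensembl identifier (37607 of 38924 matched). Depth is given with the report; counting error is small beside the spread between libraries, and the chi-square per degree of freedom of 39 replicate pairs was 20.29 to 72.44, so no pair was counted as 1.

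Each comparison used edgeR 4.0.16 (R 4.3.3): filterByExpr with a minimum count of 10, TMM scaling, and the quasi-likelihood test with Benjamini-Hochberg adjustment over all genes tested, called at 0.05. Mutant and control cells were compared within the libraries of 1 population, and populations within the 15 mutant or 14 control libraries. The quasi-likelihood test gives no standard error. Those printed for edgeR fits were derived as the size of the log2 difference divided by the square root of the F statistic. The average mutant effect used limma 3.58.1 voom with the number in the sample description as a random block, whose estimated correlation was -0.000528. The fit of populations over both genotypes, a term for the prefix in the column names and the robust fit were added after the data had been seen. The likeness of 2 genes used log2 CPM with a prior count of 2. Scripts were tested on simulated data.

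The 10 genes and the other lists were chosen with earlier results of these data known. All 10 genes are reported. Of the other G1/S regulators at most 4 per comparison are named, those with the smallest p among the called, and *Mki67*, *Cdk1* and *Mcm5* stand for the proliferation lists; *Dnmt3a*, *S100a8*, *Gins2* and the genes that overlap a member were named after their values were seen. Alternatives were DESeq2 1.42.0, RLE size factors, no filter on low counts, mitochondrial genes and Gm42418 left out (22.62% to 40.99% of counts), replicate blocks, and libraries left out. The description numbers recur across populations of the same genotype, so libraries with the same number may share an animal. Deviations of 39 same-numbered pairs correlated at -0.152 to 0.175 (median 0.0202). For 118 pairs with other numbers within a genotype the range was -0.19 to 0.203 (median -0.00811). Apart from the random block of the average effect, the numbers were used only in alternatives, and the other main fits treat libraries as independent.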

Additional observations from a re-analysis of the deposited data

Results flagged for a closer look

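Single libraries stood apart from the rest of their group in 9 of the 50 groups of 4 libraries checked, in each case because the gap to the nearest library took up most of the group's range. For independent, normally distributed values chance gives about 1 such group in 20. The genes share their libraries and CPM values are skewed, so that rate need not hold here. *Ccnd1* was at 216 CPM in mutant MPP3 replicate 1, against 23.5 to 38.8 CPM in the other 3 libraries, and at 52.5 CPM in mutant ST-HSC replicate 4, against 33.1 to 33.4 CPM. *Ccnd3* was at 76.1 CPM in mutant MPP4 replicate 4, against 85.3 to 85.7 CPM. *Cdk4* was at 195 CPM in control MPP4 replicate 4, against 153 to 155 CPM. *Cdk6* was at 290 CPM in control LT-HSC replicate 1, the library with the most neutrophil and erythroid RNA, against 449 to 481 CPM. *Cdkn1b* was at 74.5 CPM in control LT-HSC replicate 2, against 41.1 to 46.7 CPM. *Cdkn1c* was at 3.26 CPM in mutant MPP4 replicate 4, against 0 to 0.502 CPM, and at 5.47 CPM in control MPP4 replicate 4, against 0.683 to 1.35 CPM. *Cdkn2d* was at 24.6 CPM in mutant ST-HSC replicate 2, against 18.3 to 18.8 CPM. What set these libraries apart was not tested.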

How the results depend on the processing

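No direction of the 21 calls turned in 432 recomputations, of which 326 kept the call and 106 lost it. The 0 calls for mutant against control cells held for the 10 genes under every alternative that gave a gene a value. In MPP3 *Cdkn1c* had a value in 12 alternatives, against 15 for the other genes. Calls over all genes in LT-HSC went from 0 to 189 without a filter, 292 by DESeq2, 397 with the title number as a replicate block and 417 without control LT-HSC replicate 4, and were at most 5 in the other populations. No filter gave 4 for the average effect and 24 for its variation between populations, and leaving out control LT-HSC replicate 4 gave 21 and 46. DESeq2 called 3 of the 10 genes in control MPP4 against LT-HSC (edgeR 1), 1 in each of the other control comparisons that involve MPP3 or MPP4 (edgeR 0), 1 in mutant ST-HSC against LT-HSC (0), 3 in mutant MPP3 against LT-HSC (1) and 2 in mutant MPP3 against ST-HSC (1). DESeq2 called more genes in all: 308, 558, 1061, 746, 606 and 468 in control libraries (edgeR 15, 208, 673, 262, 223 and 215), 180, 874, 578, 1183, 722 and 480 in mutant libraries (edgeR 41, 436, 322, 631, 331 and 212), and 444 for ST-HSC against LT-HSC over both genotypes (edgeR 222). RLE factors, no filter and the robust fit each gave 1 call in control MPP3 against ST-HSC, as did leaving out mitochondrial genes or the libraries over 100 CPM of *S100a8*, and the first 3 gave 2 in mutant MPP3 against LT-HSC. The robust fit gave 2 in control MPP4 against LT-HSC, and no filter 3 in MPP4 against LT-HSC over both genotypes. Without a filter, calls over all genes in control libraries were 174 (15), 359 (208), 396 (262), 359 (223) and 350 (215).

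Without the libraries over 100 CPM of *S100a8* the calls against LT-HSC over both genotypes fell to 1 of the 10 genes in MPP3 and 0 in MPP4, and to 0 in control MPP4; over all genes they fell to 63, 727 and 539 in ST-HSC, MPP3 and MPP4 (222, 1177 and 1142), and to 3, 94 and 89 in control libraries (15, 208 and 673). This alternative leaves 1 control LT-HSC library, which is assumed to vary like the others. With 1 library left out at a time, calls among the 10 genes were 0 to 2 in control MPP4 against LT-HSC, 0 to 1 in control MPP3 against ST-HSC, 0 to 2 in mutant MPP3 against LT-HSC, 0 to 1 in mutant MPP4 against LT-HSC, 0 to 2 in mutant MPP4 against ST-HSC and 0 to 1 in mutant MPP4 against MPP3. Over both genotypes they were 2 to 4 in MPP3 and 2 to 5 in MPP4 against LT-HSC, 1 to 4 in each against ST-HSC, and 1 to 2 in MPP4 against MPP3. The cause was not tested.

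The numbers of the libraries were not shown to pair them. With the description number as a replicate block, control MPP4 against LT-HSC had 0 calls among the 10 genes and 590 over all genes, mutant MPP3 against LT-HSC had 2, and over all genes control ST-HSC against LT-HSC had 8 (15) and control MPP3 against ST-HSC 146 (262). The prefix in the column names as a term gave 67 genes in control ST-HSC against LT-HSC (15). Counts limit *Cdkn1c* most: 3 counts, the limit that a count of 0 allows, are 0.288 to 0.564 CPM, so differences among its lowest libraries were not detectable. Such limits cover counting error only.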
